A study of Mus musculus with 8 samples.

Results

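The genes described here are 44 genes of the cell cycle and mitosis, chosen by their symbols. They include cyclins and cyclin-dependent kinases (CDKs), CDK inhibitors, replication licensing and fork proteins, enzymes of nucleotide supply and mitotic kinases. Spindle checkpoint proteins, kinetochore and chromosome proteins, and cytokinesis proteins are also among them. Kinesin motors were left out, apart from the kinetochore motor Cenpe. Of the 44 members, 43 had an array feature under their symbol and 41 were tested, among 15346 genes tested in all. Ttk, a spindle checkpoint kinase, and Anln, a scaffold of the cytokinetic ring, had no feature with a value on every array, and Ccnb1, the main mitotic cyclin B, is not analysed here. The 43 members had 113 features, of which 102 had a value on all 8 arrays. A gene's value is the mean of those features, and 16 of the tested members had more than 1.

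Liver RNA of C3H/HeN mice was hybridised to 8 Agilent arrays of 2 colours, 2 arrays in each of 4 groups. The groups were female IL1-beta, male IL1-beta, male control and female control. Animals were 8 weeks old and received intraperitoneal recombinant murine IL1-beta, an inflammatory cytokine, at 25 µg/kg, or vehicle, every other day over 2 weeks, and livers were collected 1 h after the last dose. By the labels, every array carried Cy5-labelled liver RNA and a Cy3-labelled universal reference pooled from 11 mouse cell lines, so a value is the log2 ratio of liver over the cell-line pool, on the assumption that the deposited log ratios have base 10. A ratio says nothing of a gene's level, and ratios are not levels compared between genes. Channel intensities were not analysed here, so it is unknown which liver signals stood above background, and strongly negative ratios may be bounds. The array number limits the precision, and in bulk liver, fewer cells of a type and less RNA per cell cannot be told apart.

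The cell cycle is driven by CDKs, which are active only with a cyclin partner and are held back by inhibitor proteins. Genes of DNA replication are transcribed around the entry into S phase, largely through E2F factors, and genes of mitosis later, in G2 and M, through the DREAM and MuvB complexes together with B-Myb and FoxM1. In an adult liver most hepatocytes rest outside the cycle and re-enter it after injury or loss of tissue, whereas cultured cell lines proliferate.

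The control arrays did not show the profile of liver over the pool, and their direction is unsettled. Hepatocyte markers (11 of 13 listed were measured) had median log2 ratios between 5.65 and 6.08 on the 4 IL1-beta arrays, but 0.13 and 0.30 on the arrays labelled male control and -0.34 and -0.31 on those labelled female control. Arrays labelled male control and female control were near mirror images over all genes, with r = -0.72 and -0.59 between arrays of the same number and -0.52 and -0.48 between unlike numbers, although r was 0.61 within the male label and 0.63 within the female label. The signs of sex-linked genes opposed the labels: Xist was at 5.40 and 5.78 on the arrays labelled male control, against -4.94 and -4.57 on those labelled female control, whereas under IL1-beta it was at 2.11 and 1.52 in females and -4.32 and -4.36 in males. The labels put the same dye on liver throughout, so they do not settle which way the control ratios run. The control arrays are therefore described by the difference between the arrays labelled male control and those labelled female control, divided by 2, called the control contrast below. Positive values lie on the side on which Xist was high, and with the sign turned every value of the control contrast changes sign. Whether arrays of a group came from separate animals is given only as biological replicates.

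Many member promoters hold sequence elements known to control cell cycle genes, and 5 are shown. Bub1 lay furthest below the pool, Top2a and Mki67 differed in sign between control arrays, and Ccnb2 and Cdc6 passed in the control contrast. The CHR (TTTGAA) is bound by the DREAM and MuvB complexes, the CCAAT box (CCAAT) by the NF-Y factor, and E2F sites were searched as TTTCCCGC, TTTCGCGC, TTTGCCGC and TTTGGCGC. Sequences are the 250 bases before the annotated start, 5′ to 3′ on the gene's strand, from RefSeq (GRCm38.p6), and capitals mark matches on either strand. The Bub1 sequence lies at chr2:127831860-127832109, Top2a at chr11:99024190-99024439, Mki67 at chr7:135716380-135716629 and Ccnb2 at chr9:70421555-70421804, all on the minus strand, and Cdc6 at chr11:98907901-98908150 on the plus strand.
Bub1: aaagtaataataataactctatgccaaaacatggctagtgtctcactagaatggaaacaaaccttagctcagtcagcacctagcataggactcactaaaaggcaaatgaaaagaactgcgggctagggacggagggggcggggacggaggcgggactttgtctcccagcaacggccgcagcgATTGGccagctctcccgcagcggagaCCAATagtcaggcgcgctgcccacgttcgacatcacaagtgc
Top2a: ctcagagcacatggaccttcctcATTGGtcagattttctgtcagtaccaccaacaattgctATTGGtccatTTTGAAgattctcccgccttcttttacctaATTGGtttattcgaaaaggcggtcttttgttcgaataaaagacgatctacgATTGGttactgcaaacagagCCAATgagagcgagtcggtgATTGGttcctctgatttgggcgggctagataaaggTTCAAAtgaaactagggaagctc
Mki67: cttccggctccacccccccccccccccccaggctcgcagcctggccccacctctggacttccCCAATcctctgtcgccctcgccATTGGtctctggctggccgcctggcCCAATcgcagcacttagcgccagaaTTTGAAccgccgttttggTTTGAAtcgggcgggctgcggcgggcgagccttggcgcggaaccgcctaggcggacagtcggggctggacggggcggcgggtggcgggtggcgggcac
Ccnb2: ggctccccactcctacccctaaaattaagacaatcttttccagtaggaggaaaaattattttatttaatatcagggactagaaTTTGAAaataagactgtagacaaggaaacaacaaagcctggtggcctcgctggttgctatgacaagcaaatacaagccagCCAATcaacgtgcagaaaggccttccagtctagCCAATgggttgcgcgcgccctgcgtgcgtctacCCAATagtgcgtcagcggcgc
Cdc6: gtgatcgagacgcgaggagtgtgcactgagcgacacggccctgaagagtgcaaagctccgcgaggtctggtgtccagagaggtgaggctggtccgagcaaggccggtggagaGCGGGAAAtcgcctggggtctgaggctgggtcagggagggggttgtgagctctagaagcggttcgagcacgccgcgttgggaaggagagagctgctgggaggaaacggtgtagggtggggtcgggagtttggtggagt
Top2a held 2 CHR and 6 CCAAT matches, and Mki67 held 2 CHR and 3 CCAAT matches. Ccnb2 held 1 CHR and 3 CCAAT matches, Bub1 held 2 CCAAT matches and Cdc6 held 1 E2F match. The promoters of Cdkn1a, Ccne1 and Tyms, which also passed in the control contrast, held 0 matches. Matches of unlike motifs did not overlap in any member promoter (0 overlaps), and 2 overlaps joined matches of the same motif.

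Of the 41 tested members, 34 had a promoter in the table, with 38 promoters among 32851. Promoters of the members outside the test were not looked up. A CCAAT match was present in 27 of 38 member promoters (71.1%), against 33.8% of all promoters of the same length. A CHR match was present in 11 (28.9%), against 16.0% of all, and an E2F match in 6 (15.8%), against 1.9% of all. By role, the counts of matches were compared without a test. Mitosis members are here those in the mitotic kinase, spindle checkpoint, kinetochore and cytokinesis roles. Replication members are those in licensing, fork and nucleotide supply. Cdk1 and Ccnb2, listed with the CDKs and cyclins, are in neither group. Their promoters both held CHR and CCAAT matches, and that of Cdk1 also held 1 E2F match. Among 16 promoters of 14 mitosis members, 37.5% held a CHR match and 81.2% a CCAAT match, and 0 held an E2F match. Ect2 and Prc1 each had 2 promoters here with largely overlapping windows, so some sites were counted more than once. Among 12 promoters of 11 replication members, 33.3% held an E2F match, 16.7% a CHR match and 75.0% a CCAAT match. A match is a description of the letters in this window, and a missing match says only that the letters are not there.

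The first comparison asks how the cell cycle genes of IL1-beta livers stood against the cell-line pool. By their gene means, all 41 tested members were below the pool on each of the 4 IL1-beta arrays, and all 41 passed the test as lower (limma, Benjamini-Hochberg adjusted p below 0.05 over all genes), where 42.3% of all genes were called lower. The median log2 ratio was -3.05 over the members and -0.11 over all genes. Members ranged from -6.06 for Bub1 to -1.02 for Cdkn1b. The 4 arrays differed little for most members, with a median SD of 0.244 over the members and 0.261 over all genes. These ratios compare liver with another source of RNA, not IL1-beta with a control.

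The 4 members furthest below the pool were mitosis genes. Bub1, a kinase of the spindle checkpoint, was at -5.95 and -5.98 in female IL1-beta livers and at -5.91 and -6.41 in male IL1-beta livers, 66.8-fold below the pool (log2 -6.06 ± 0.20, SE, limma adjusted p = 2.08e-07). Only 0.046% of all genes had a lower mean ratio on these arrays. Cenpe, the kinetochore motor that carries chromosomes to the spindle equator, was at -4.45 and -4.80 in females and at -4.72 and -5.18 in males, 27.6-fold below the pool (limma adjusted p = 4.9e-06). Nusap1, which bundles spindle microtubules, was at -4.52 and -4.62 in females and at -4.55 and -5.15 in males, 26.2-fold below the pool (limma adjusted p = 2.09e-06). Aurkb, the kinase of the chromosomal passenger complex, was at -4.25 and -4.35 in females and at -4.55 and -4.98 in males, 23.2-fold below the pool (limma adjusted p = 2.12e-06). For Bub1 and Cenpe the arrays of the sexes overlapped, and for Aurkb both female arrays lay above both male arrays. The proliferation markers followed closely. Mki67, which coats mitotic chromosomes, was at -4.07 and -4.55 in females and at -4.53 and -4.58 in males, and Top2a, the topoisomerase that untangles sister chromatids, was at -3.95 and -4.38 in females and at -4.68 and -4.72 in males, both 21.6-fold below the pool. The remaining kinetochore member, Cenpf, averaged -3.01. The median over these 5 kinetochore, spindle and chromosome members was -4.43.

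The other mitotic members had ratios in a middle range. Among spindle checkpoint and anaphase-promoting complex members, the checkpoint proteins Mad2l1 and Bub1b averaged -3.64 and -3.53, and Cdc20, the activator of the anaphase-promoting complex, averaged -3.27. Birc5 (survivin), a partner of Aurkb, averaged -4.03, and the mitotic kinases Plk1 and Aurka averaged -2.66 and -2.18. Of the cytokinesis members, Prc1, which bundles midzone microtubules, averaged -3.38 and Ect2, which activates RhoA at the division plane, averaged -3.12. Among these 8 genes Birc5 lay lowest and Aurka highest. Ttk, outside the test, was at -3.31 and -2.86 in females and at -2.46 and -3.00 in males on its only feature. Anln, also outside it, averaged -5.35 on one feature and -3.22 on another.

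Replication genes lay in the same range as the middle group of mitosis genes. The 10 licensing and fork members, all of which passed as lower, had a median of -3.07, from -3.94 for Cdc45, a subunit of the replicative helicase, to -2.33 for Cdc6, which helps to load that helicase. Its core subunits Mcm2 to Mcm7 spanned -3.84 for Mcm4 to -2.36 for Mcm5, and Cdt1, the other loading factor, averaged -3.05. The values of Mcm4 and Cdc6 each rest on 1 feature, and a second feature of each, described below, disagreed with it. Pcna, the sliding clamp of DNA polymerases, was at -2.79 and -2.65 in females and at -2.58 and -2.94 in males, 6.68-fold below the pool (limma adjusted p = 3.58e-07). Its 4 arrays lay within 0.36 of each other. In nucleotide supply, Rrm2, the regulated subunit of ribonucleotide reductase, averaged -4.34, close to the mitosis genes. The transcription factors E2f1 and Foxm1 averaged -2.42 and -2.29.

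By their medians, the CDKs and cyclins (-1.94) and the inhibitors (-1.79) were nearest to the pool, without a test of the difference between roles. The 9 CDKs and cyclins ranged widely, with Ccna2, the S phase and G2 cyclin, lowest at -3.63 and the G1 kinase Cdk4 next at -2.95. Cdk1, the mitotic kinase, was at -1.96 and -1.87 in females and at -1.80 and -1.84 in males, 3.65-fold below the pool (limma adjusted p = 2.16e-05). All 4 Cdk1 arrays lay within 0.16 of each other, with both female arrays below both male arrays. Ccnb2, Ccne2, Ccnd2 and Cdk2 averaged -2.12, -2.56, -1.94 and -1.63. The 4 members nearest to the pool were Cdkn1b, Ccnd1, Ccne1 and Tyms. Cdkn1b (p27), an inhibitor of CDKs in resting cells, was at -0.47 and -0.998 in females and at -1.12 and -1.48 in males, 2.02-fold below the pool (limma adjusted p = 0.000212). Ccnd1 (cyclin D1), which couples growth signals to Cdk4, was at -0.02 and -0.95 in females and at -1.79 and -1.76 in males, 2.19-fold below the pool (limma adjusted p = 0.000387). Ccne1, the partner of Cdk2 at S phase entry, was at -1.62 and -1.27 in females and at -1.01 and -1.20 in males, 2.42-fold below the pool (limma adjusted p = 2.01e-05). For Ccnd1 the sexes did not overlap and the 2 female arrays lay far apart, and for Ccne1 both female arrays lay below both male arrays. Tyms, the thymidylate synthase, was at -1.74 and -1.37 in females and at -1.18 and -1.28 in males, on average 2.63-fold below the pool. The other inhibitors were Cdkn1a (p21), at -1.79 on average, and Cdkn3, a phosphatase that acts on CDKs, at -3.00.

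**Figure D1:**
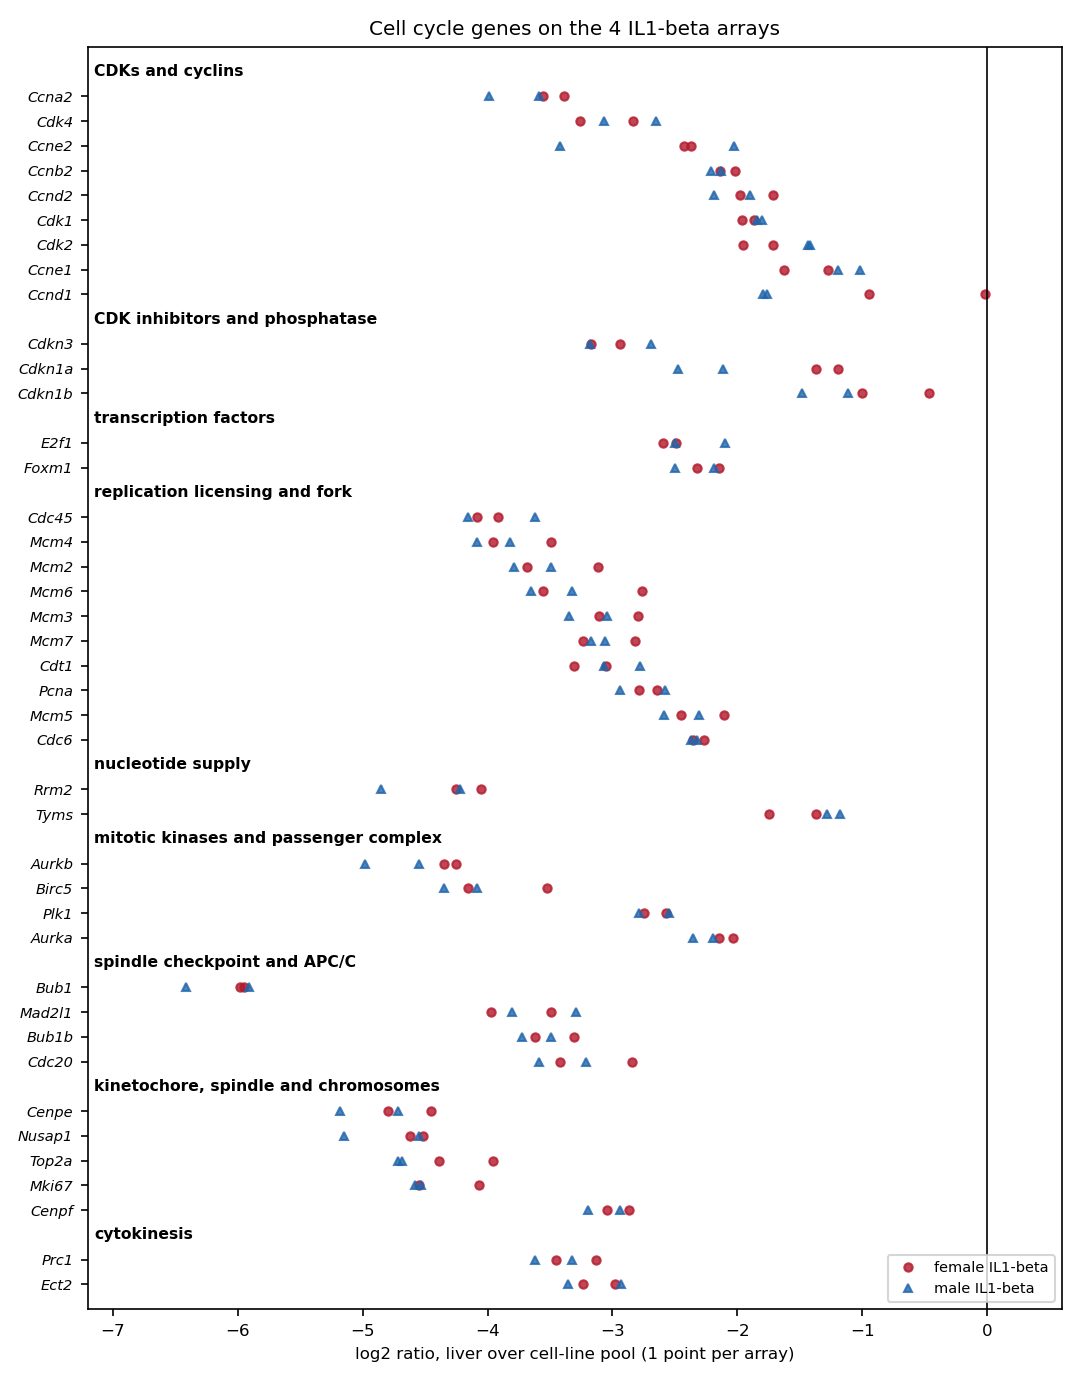
Log2 ratio of liver over the cell-line pool (horizontal axis) for the 41 tested members (rows, by role), with 1 point per array for the 2 female IL1-beta arrays (circles) and the 2 male IL1-beta arrays (triangles). Every point lies below 0, Bub1 lies furthest left, and Ccnd1 and Cdkn1a show the widest gap between the sexes.

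Among features with a value on all 8 arrays, those of 4 members disagreed by more than 1 log2 unit. For Tyms, a feature averaged 0.49 on the IL1-beta arrays while the other 2 averaged -2.28 and -2.39, so that the gene's mean describes none of them. For Cdkn1b, a feature averaged -2.70 while the other 11 lay between -1.26 and -0.75. That feature also ran against the others on the control arrays, at 0.64 and 1.21 on those labelled male control and -0.82 and -1.60 on those labelled female control, whereas the gene's mean was at -0.18 and -0.07 on those labelled male control and 0.24 and 0.50 on those labelled female control. The 2 features of Cdk2 averaged -1.01 and -2.25, and those of Cdkn3 -3.59 and -2.40. By contrast, the 10 Ccnd1 features averaged between -1.16 and -1.11.

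A further 11 features, of 9 members, had values on the IL1-beta arrays but lacked one on some control array, and were left out of the gene means. With them counted, 11 members had features more than 1 log2 unit apart. The second Mcm4 feature was at 0.79 and 0.51 in females and at -0.72 and 0.43 in males, a mean of 0.25, whereas the feature used averaged -3.84. It was above the pool on 3 of 4 arrays, so the low Mcm4 value rests on 1 feature. The second Cdc6 feature averaged -4.38, against -2.33 for the one used. The first feature lay above and the second below the means of all other licensing and fork members. The second Cdk1 feature averaged -0.58, against -1.87 for the one used. Of the mitosis genes, Nusap1 had a second feature at -2.68, Cenpf one at -4.06, and Top2a 2 more at -3.23 and -1.60. Top2a at -1.60 was uneven between arrays, at -0.13 and -2.73 in females and at -3.23 and -0.29 in males.

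Other genes of the pathway, outside the members, were also mostly below the pool. Of 45 other replication genes measured, 44 passed as lower and 1 as higher, with a median of -2.06. The exception was Mcm10, a fork protein, at 0.39 and 0.96 in females and at 2.00 and 1.70 in males. All 44 other mitosis genes measured passed as lower, with a median of -3.64. Of 18 other CDKs, cyclins and inhibitors, 16 passed as lower and 1 as higher. The higher gene was the inhibitor Cdkn1c (p57), at 3.003 and 2.65 in females and at 1.58 and 1.38 in males. Of 21 RB, E2F and DREAM regulators, 17 passed as lower and 2 as higher, namely Tfdp2 at 0.71 and E2f6 at 0.66. Of 17 targets of p53, 9 passed as lower and 5 as higher. Among the higher genes were the death receptor Fas at 3.20, Trp53inp1 at 3.19 and the kinase Plk3 at 2.59. Of all genes, 42.3% were called lower and 36.2% higher in this comparison. No set test was made on these lists, and the all-gene median was -0.11.

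**Figure D2:**
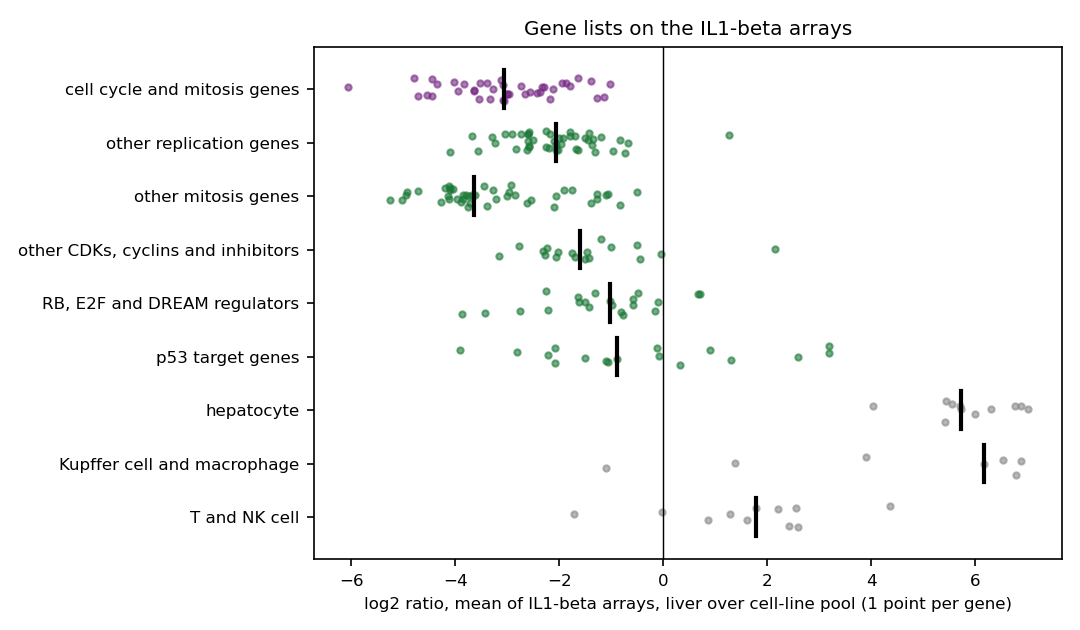
Mean log2 ratio of liver over the cell-line pool on the 4 IL1-beta arrays (horizontal axis), with 1 point per gene, for the members, 5 lists of other cell cycle and p53 genes and 3 lists of cell type markers (rows); black bars are medians. The members sit at a median of -3.05 and the other mitosis genes at -3.64, whereas hepatocyte markers sit at 5.72.

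The second comparison asks whether females and males given IL1-beta differed. No member passed (0 of 41, against 0.163% of all genes called in either direction), and 2 of 41 members and 1270 of 15346 genes had an unadjusted p below 0.05. Both of these members act in G1, and both had a female mean above the male mean. Ccnd1 differed by 1.30 ± 0.31 (female minus male, SE, n = 2 each, limma adjusted p = 0.293). Cdkn1a was at -1.37 and -1.19 in females, against -2.11 and -2.48 in males, a difference of 1.01 ± 0.26 (limma adjusted p = 0.322). For both genes the arrays of the sexes did not overlap. The next largest difference was that of Cdkn1b, at 0.57 ± 0.25 (limma adjusted p = 0.625), and the most negative that of Cdk2, at -0.41. In all, 31 of 41 members had a positive difference, with a median of 0.18 over the members and -0.01 over all genes. Both female arrays lay above both male arrays for 7 members and below them for 4, and over all genes the arrays of the sexes were apart for 36.8%. In these arrays T and NK cell markers were also higher in females by their median (0.45, 10 of 11 genes above 0), while hepatocyte markers were lower (-0.23, 10 of 11 below 0), and no gene of either list passed. Their part in the members' differences was not tested.

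The third comparison is the control contrast. Of the 41 members, 5 passed on the positive side and 3 on the negative side, against 12.1% and 9.3% of all genes. The median was 0.20 over the members and -0.02 over all genes. The share of members called was thus close to that of all genes. An unadjusted p below 0.05 was found for 14 of 41 members and 5639 of 15346 genes. Those that passed as positive were Ccnd1, Cdkn1a, Ccnd2, Cdc45 and Cdc6, and those that passed as negative were Ccnb2, Ccne1 and Tyms. Other members of the same roles lay on either side of 0 without passing, such as Ccne2 at -0.34 and Cdt1 at -0.14.

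Ccnd1 and Cdkn1a had the largest control contrasts among the members. Ccnd1 was at 1.496 and 1.78 on the arrays labelled male control, against -1.74 and -1.89 on those labelled female control, a contrast of 1.73 ± 0.16 (SE, limma adjusted p = 0.000974). Cdkn1a was at 1.12 and 1.70 on the arrays labelled male control, against -0.72 and -0.95 on those labelled female control (1.12 ± 0.13, limma adjusted p = 0.0024). Ccnd2 (cyclin D2), a further partner of Cdk4, was at 0.30 and 0.49 on those labelled male control and -0.54 and -0.62 on those labelled female control (0.49 ± 0.10, limma adjusted p = 0.0179). In all 3 genes the 2 labels were apart and lay on opposite sides of 0. The replication factors had more spread within a label. Cdc45 was at 0.65 and 0.19 on the arrays labelled male control, against -1.83 and -1.17 on those labelled female control (0.96 ± 0.15, limma adjusted p = 0.00755). Cdc6 was at -0.05 and 0.50 on those labelled male control and -1.92 and -0.78 on those labelled female control (0.79 ± 0.19, limma adjusted p = 0.0283). The second Cdc6 feature, without a value on 1 of these arrays, was not part of this mean.

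On the negative side, Ccnb2 (cyclin B2), a mitotic cyclin, was at -0.38 and -0.87 on the arrays labelled male control, against 0.53 and 1.21 on those labelled female control (-0.75 ± 0.14, limma adjusted p = 0.0129). Ccne1 was at -0.62 and -0.43 on those labelled male control and 0.53 and 0.62 on those labelled female control (-0.55 ± 0.10, limma adjusted p = 0.0121). Tyms was at -0.71 and -0.62 on those labelled male control and 0.52 and 0.64 on those labelled female control (-0.62 ± 0.10, limma adjusted p = 0.00722). The 2 labels were apart in all 3 genes. The Tyms value rested mostly on the feature that disagreed with the others, which was at -1.59 and -1.47 on the arrays labelled male control and 1.29 and 1.40 on those labelled female control, while the other 2 features spanned -0.28 to 0.36. With the median of features, the Tyms contrast was -0.25 (limma adjusted p = 0.0949). Pcna was nearly level, at 0.20 and 0.24 on those labelled male control and 0.21 and 0.35 on those labelled female control.

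These calls depended on how the control arrays entered the fit. With the arrays of the same number taken as 1 sample each, the count was 4 (7.08% of all genes passed), all positive, and the 4 lost were Ccnd2, Ccne1, Tyms and Ccnb2. Leaving out any one control array also ended some of the 8 calls. Ccnd1, Cdkn1a and Cdc45 passed in each of these settings. Ccnd2 lost its call without any one of the control arrays (limma adjusted p between 0.0581 and 0.0856). Cdc6 lost it without the first array labelled female control (0.51, limma adjusted p = 0.0766), without either array labelled male control (0.93 and 0.65, limma adjusted p = 0.0567 and 0.117) and without either male IL1-beta array (limma adjusted p = 0.0537). Ccne1 lost it without the first array labelled male control (limma adjusted p = 0.0733) or the second labelled female control (limma adjusted p = 0.0572), and Ccnb2 without the second array of either label (limma adjusted p = 0.0587 for male and 0.0534 for female). Leaving out an array did not end the call of Tyms. Other members gained a call when a control array was left out. Without the second array labelled male control these were Top2a (1.19), Mki67 (0.88), Aurkb (1.07) and Foxm1 (0.71). Bub1b (1.57) gained one without the first array labelled male control, and Aurkb (1.10) and Cdk1 (0.62) without the second labelled female control. Cell type markers moved with the control contrast too. All 6 adipocyte markers measured (of 7 listed), 6 of 9 stellate cell markers and 5 of 7 Kupffer cell and macrophage markers (of 10 listed) passed as positive. The share of all genes was 12.1%. Other lists had positive calls too, with 6 of 11 T and NK cell, 3 of 7 sinusoidal endothelium and 3 of 11 hepatocyte markers. The counts were 2 of 6 for neutrophil, 2 of 5 for cholangiocyte, 2 of 4 for B cell and 1 of 6 for erythroid precursor markers. As negative, 2 T and NK cell markers and 1 erythroid precursor marker passed. Adipocyte markers had medians of 0.91 and 4.17 on the arrays labelled male control, against -2.91 and -3.25 on those labelled female control. Their part in the members' values was not tested.

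**Figure D3:**
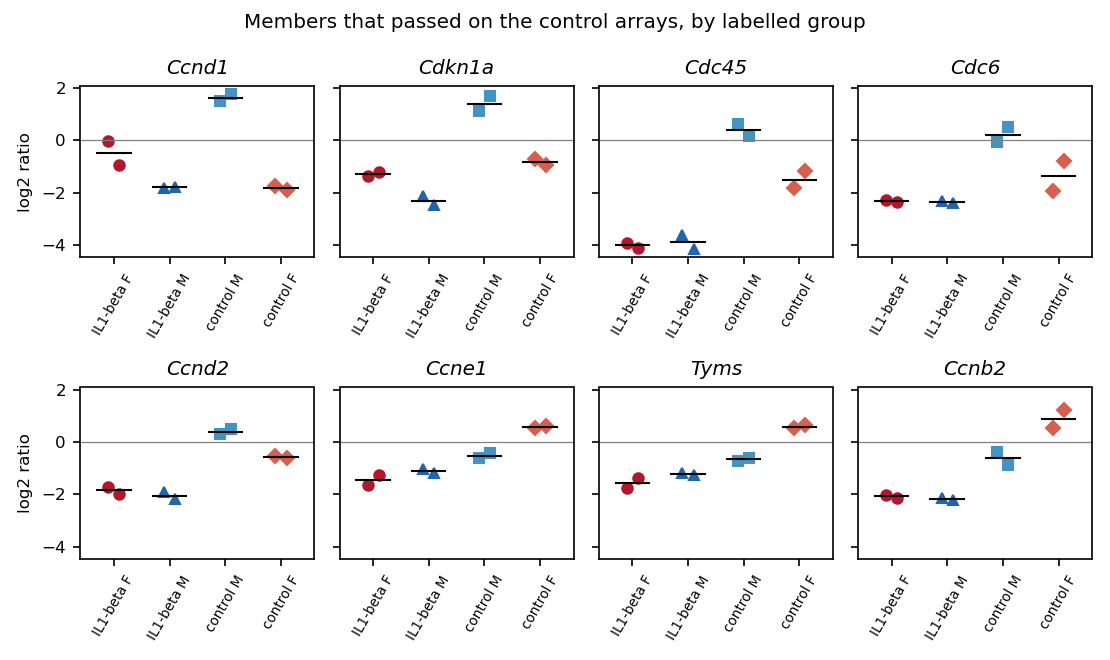
Log2 ratio (vertical axis) of the 8 members that passed in the control contrast, with 1 point per array and a line at each group's mean, for female IL1-beta, male IL1-beta, male control and female control as labelled. Ccnd1, Cdkn1a, Cdc45, Cdc6 and Ccnd2 are higher on the arrays labelled male control than on those labelled female control, and Ccne1, Tyms and Ccnb2 are lower.

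Several mitosis genes had opposite signs on the 2 control arrays of a label. These values are a description, with no test. For each number, the array labelled female control was subtracted from the array labelled male control and the difference divided by 2. All 5 kinetochore, spindle and chromosome members were positive for number 1 and negative for number 2, with medians of 0.98 and -0.36. Top2a was at 2.02 and -0.48 on arrays 1 and 2 labelled male control, against -0.95 and 0.22 on arrays 1 and 2 labelled female control. Mki67 was at 1.29 and -0.13 on those labelled male control and -0.91 and -0.05 on those labelled female control. Cenpf was at 1.03 and -0.53 on those labelled male control and -0.46 and 1.00 on those labelled female control. The arrays of one label thus lay on opposite sides of 0 for Top2a and Cenpf, and their group means show little of this, with control contrasts of 0.57 for Top2a and -0.01 for Cenpf. Cenpe (0.98 and -0.43 for numbers 1 and 2) and Nusap1 (0.76 and -0.36) had the same pattern, as did Aurka (0.22 and -0.74), Cdc20 (0.09 and -1.11) and Prc1 (0.34 and -0.63). Bub1b ran the other way in size, at 0.42 and 1.60.

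Of all 41 members, 14 (34.1%) were positive for number 1 and negative for number 2, 2 the reverse, 17 positive for both and 8 negative for both. The share over all genes was 12.9%. Among the other mitosis genes 19 of 44 (43.2%) were positive and then negative, and among the other replication genes 11 of 45 (24.4%). Of the licensing and fork members, 7 of 10 were positive for both numbers (medians 0.44 and 0.14). Over the 41 members, the 2 arrays labelled male control correlated with r = 0.18, against 0.61 over all genes, and the 2 labelled female control with r = 0.60, against 0.63 over all genes. Between labels, r over the members was -0.62 and -0.77 for arrays of the same number and -0.38 and -0.16 for unlike numbers. Members share arrays, so these r values describe 4 control arrays and carry no test. Cholangiocyte markers had medians of 0.50 and -0.18 for numbers 1 and 2, with 2 of 5 genes positive and then negative. For B cell markers the medians were 0.51 and -0.15, with 1 of 4 genes positive and then negative. For erythroid precursor markers they were 0.15 and -0.21, with 2 of 6 genes (33.3%) positive and then negative. These medians had the same signs as the mitosis genes, but most genes of each list did not have the pattern. Kupffer cell markers (1.15 and 0.78) and stellate cell markers (0.78 and 0.62) were positive for both numbers. The part of these cells in the pattern was not tested.

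**Figure D4:**
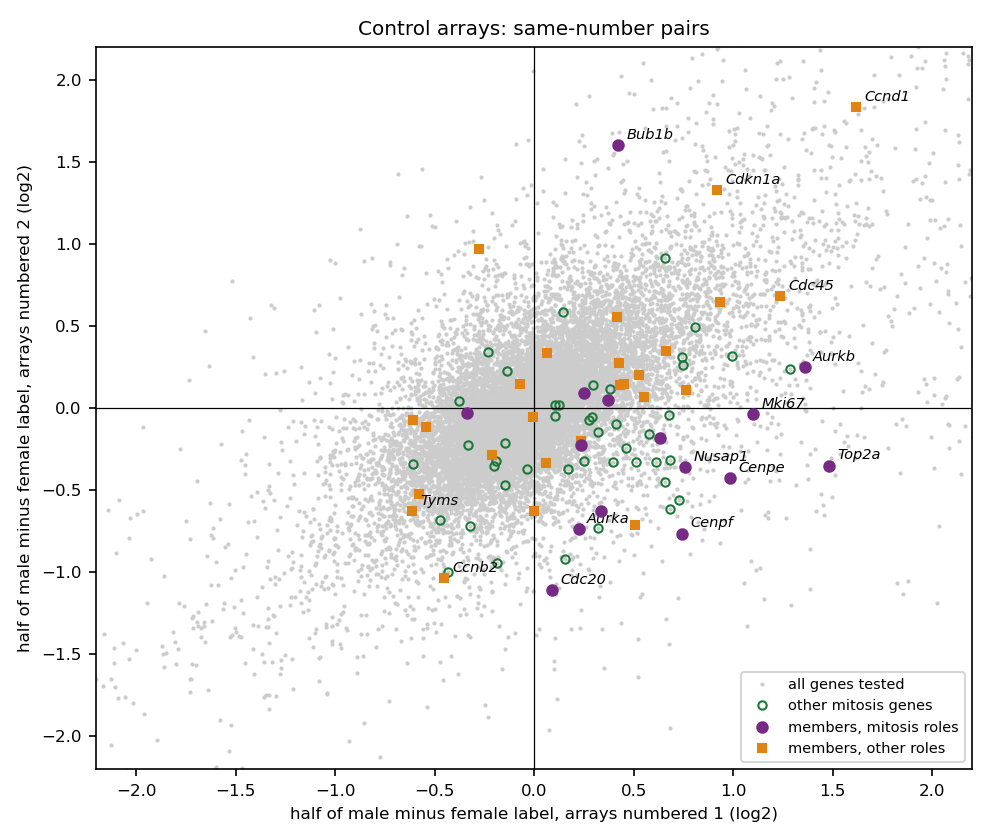
The difference of the array labelled male control minus that labelled female control, divided by 2 (log2), for arrays numbered 1 (horizontal axis) and 2 (vertical axis), with 1 point per gene: members in mitosis roles, members in other roles, other mitosis genes and all genes tested (340 genes lie outside the plotted range). Top2a, Cenpe, Cenpf, Nusap1, Aurka and Cdc20 lie right of 0 and below 0, whereas Ccnd1, Cdkn1a and Cdc45 lie above 0 on both axes.

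Other genes of the pathway passed on both sides in the control contrast. Of all genes, 12.1% passed as positive and 9.3% as negative, and no set test was made on these lists. Among other replication genes 2 of 45 passed as positive and 7 as negative, with Orc1, of the origin recognition complex, at 0.82 and Mcm10, Tipin and Dbf4, the activator of the Cdc7 kinase, at -0.98, -0.96 and -0.71. Among other mitosis genes 3 of 44 passed as positive and 4 as negative, with Espl1 (separase) at 0.79 and Spag5 and Nek2 at -0.72 and -0.58. Of the RB, E2F and DREAM regulators 1 of 21 was positive and 7 negative, among them Rbbp4, Skp2, Lin9 and E2f3 at -0.86, -0.78, -0.58 and -0.52. All 3 passing genes of the other CDKs, cyclins and inhibitors were positive, namely Cdkn1c at 0.88, Cdc25b at 0.69 and Cdkn2c at 0.41. Of the p53 targets, Phlda3, Bbc3 and Sesn1 were positive at 1.56, 0.71 and 0.45, and Plk2 was negative at -0.57. Cdkn1a, a member, is itself a p53 target.

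The fourth comparison asks whether the sex difference under IL1-beta differed from the control contrast. The sex difference under IL1-beta is a full difference, whereas the control contrast is divided by 2. They share a scale only if each control array set the sexes directly against each other, which the labels do not say. If the control arrays carried liver over the pool, as labelled, the scales are unlike. No member passed (0 of 41, against 0.209% of all genes), and 3 members and 1582 genes had an unadjusted p below 0.05. In all 32 genes were called, against 0 when any one IL1-beta array was left out. The 3 members below 0.05 were Cdc45 (-1.08 ± 0.35, limma adjusted p = 0.365), Cdkn1b (0.82 ± 0.28, limma adjusted p = 0.399) and Ccnb2 (0.84 ± 0.31, limma adjusted p = 0.439). Ccnd1, whose values were 1.30 under IL1-beta and 1.73 in the control contrast, had a difference of -0.43 ± 0.35 (limma adjusted p = 0.731). Cdkn1a, at 1.01 under IL1-beta and 1.12 in the control contrast, had a difference of -0.11 ± 0.29 (limma adjusted p = 0.921). A p that misses the threshold does not show that they were alike. In another setting the female minus male control difference as labelled was subtracted, not divided by 2, so both sign and scale changed. There 6 of 41 members (14.6%) passed, against 14.3% of all genes. Ccnd1 was at 4.75, Cdkn1a at 3.26, Cdc45 at 1.80, Ccnd2 at 1.17, Ccne1 at -1.45 and Tyms at -1.57.

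The comparison named by the labels, IL1-beta minus control, sets arrays with the liver profile against arrays without it. Averaged over the sexes, all 41 members passed as lower, against 37.6% of all genes, with a median of -3.11. In males 41 of 41 passed as lower, against 32.1% of all genes, with a median of -3.31. Nearest to the threshold were Ccne1 (-0.58, limma adjusted p = 0.0413) and Tyms (-0.56, limma adjusted p = 0.0423), whose features disagreed. Ccne1 lost its call with each array centred, with a replicate block and with the compared groups only (limma adjusted p = 0.0632, 0.0654 and 0.0515). It also lost its call with a crossed block and with the feature of the highest mean ratio. The same held when any one control array or either male IL1-beta array was left out, and with quantile normalization Ccne1 was at 0.54. In females 37 passed as lower, against 31.4% of all genes, and 1 as higher, against 25.8%. The exception was Ccnd1, at -0.02 and -0.95 on the female IL1-beta arrays, against -1.74 and -1.89 on the arrays labelled female control (1.33 ± 0.31, limma adjusted p = 0.00945). With control values of turned sign, Ccnd1 in females was at -2.30, and then 40 members passed as lower in females and 0 as higher, against 32.7% of all genes lower. With that sign, 39 passed as lower in males (31.0% of all genes) and all 41 on average (38.0% of all genes). The 3 members that did not pass in females were Cdc6 at -0.96 (limma adjusted p = 0.0672), Cdk2 at -1.36 (limma adjusted p = 0.06) and Cdkn1a at -0.44 (limma adjusted p = 0.184). Cdc6 and Cdk2 turned with the setting. Cdc6 was at -2.47 and passed once its second feature entered (limma adjusted p = 0.000518 with at least 1 value in each group and 0.00211 with zeros kept), and at -1.53 without the first array labelled female control (limma adjusted p = 0.00788). Cdk2 passed in a fit of the compared groups only (limma adjusted p = 0.0274), with a crossed block (limma adjusted p = 0.0455), without either array labelled male control (limma adjusted p = 0.014) and, at -1.83, without the second labelled female control (limma adjusted p = 0.0495). In males Cdk2 lost its call without the second array labelled male control (-0.87) and without either male IL1-beta array (-1.66 and -1.64). It also lost it in a fit of the compared groups only (limma adjusted p = 0.051) and with zeros kept (limma adjusted p = 0.0633). The feature of the highest mean ratio, quantile normalization and turned control signs ended it too. These comparisons use the arrays already described, and in them the treatment and the kind of array cannot be told apart.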

How the data were processed

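Liver RNA was measured on 8 arrays, 2 in each of 4 groups taken from the sample titles. The deposited values are log10 ratios of Cy5 over Cy3 per feature, made by the authors with Agilent Feature Extraction, per the submitters' processing notes. The log10 base is not stated and was taken from that software's usual output, and how background and dye bias were treated is not given in the sources used here. Multiplying by 3.32 turned them into log2 ratios, with no other change. Of 45018 features, 33653 carried 1 gene symbol and 56 several. An exact 0 was taken as no measurement, 26218 named features had another value on all 8 arrays, and their means per symbol gave 15346 genes. Exact zeros numbered 4646 to 5115 on IL1-beta arrays and 7933 to 10324 on control arrays. No column was left without a sample (0).

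All arrays entered 1 model of the 4 group means in limma (3.58.1, under R 4.3.3), and eBayes moderated the variances (residual degrees of freedom 4, prior 2.88). Tests were two-sided, with Benjamini-Hochberg adjustment over all genes and a threshold of 0.05. The fit was tested on simulated data. Full values are given for the members that passed in a sex or control comparison, the 4 highest and 4 lowest on the IL1-beta arrays, Mki67, Top2a, Cdk1, Pcna, Cdkn1a and Ccnd1, and members whose features disagreed. Members, lists and comparisons were chosen with earlier results of these data known. Same-numbered arrays deviated from their group means with r = -0.43 (control) and -0.407 (IL1-beta) between the sexes and from -0.039 to 0.045 otherwise, and neither the labels nor 2 numbers per group settle a pairing. The main fit has no block for the number. Since the control arrays are mirrored, r = -0.43 does not show that they are unpaired, and the same-number control values are given as a description. Alternatives were array scaling, zeros kept, other filters and probe rules, variance models, array weights, blocks, compared groups only, turned signs, same-number arrays averaged, and leaving out each array.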

Additional observations from a re-analysis of the deposited data

How the results depend on the processing

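Against the main values, most member results kept their side of the threshold under the alternatives (5486 values of a member in a setting), while 88 values lost their call, 30 gained one and 13 reversed. A reversal was counted only where the main or the alternative value passed. Changes of sign between values that both missed the threshold are therefore among the 5486. The count of members passing below the pool was 41 of 41 in the main fit. It ranged otherwise from 39 of 41 with quantile normalization (28.2% of all genes lower) to 43 of 43 with zeros kept (38.5% of all genes lower). Centring each array moved the median ratio to the pool from -0.11 to -0.0044 over all genes and from -3.05 to -2.94 over the members. The count in the control contrast was 8. It was 17 with quantile normalization and 4 with same-number control arrays as 1 sample each, and 6 to 9 when an array was left out. Over all genes that contrast called 3284 genes, 6764 with quantile normalization, 1087 with same-number arrays as 1 sample each and 1516 to 3130 when an array was left out. In females as labelled, 25 members passed with quantile normalization, against 38, and 33.1% of all genes, against 57.2%. The difference between the sex difference under IL1-beta and the control contrast passed for 2 members with quantile normalization, against 0. It passed for 6 with the control sign as labelled, where the control difference was also not divided by 2. Over all genes it was called for 627 genes with quantile normalization, 2189 with the sign as labelled, 6 to 27 without a control array and 0 without any one IL1-beta array, against 32. With quantile normalization 45.3% of these calls were positive, against 12.5%. The sex difference under IL1-beta called 0 members in every setting run, and 5 to 35 genes in all, against 25. Of those calls 64.0% were positive, against 80.0% with quantile normalization, 48.1% with the feature of the highest mean ratio and 42.9% without the second female IL1-beta array. The causes were not tested.

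The reversed values were, with quantile normalization and in males, Ccnb2 at 0.040, Ccne1 at 0.54 and Tyms at 0.79. With the feature of the highest mean ratio, Tyms was at 0.49 against the pool, 0.58 on average and 2.55 in males, which shows the feature that disagrees with the others. With turned control signs, Ccnd1 in females was at -2.30. With the control difference as labelled and not divided by 2, the difference from it was 4.75 for Ccnd1, 3.26 for Cdkn1a, 1.80 for Cdc45, 1.17 for Ccnd2, -1.45 for Ccne1 and -1.57 for Tyms.

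With the number as a replicate block, 41 members passed below the pool, 0 in the sex difference under IL1-beta, 9 in the control contrast, 41 on average, 38 in females, 39 in males and 0 in the difference of differences. Over all genes, 41.3% passed below the pool with this block. In either direction, 0.117% passed in the sex difference, 15.9% in the control contrast, 66.4% on average, 53% in females and 57.9% in males. The block called 0 genes in the difference of differences, against 32. With a crossed replicate block, chosen after the data were seen, the control contrast had 8 (19.1% of all genes) and the male comparison 39 (60.5% of all genes). A fit of the compared groups only was not run for the averaged comparison and the difference of differences, which use all arrays. Signal over background is unknown, so how far it limits these ratios could not be judged.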
